A study of Mus musculus with 5 samples.

Results

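The proteasome genes described here are the mouse genes whose symbols run Psma, Psmb, Psmc, Psmd, Psme, Psmf or Psmg followed by a number, without the interferon-inducible subunits Psmb8, Psmb9 and Psmb10. The rule was applied to probe sets with exactly 1 symbol in the platform annotation and found 44 of 22180 genes, on 47 probe sets. The list was set by name and not by any measured value, though it was chosen with earlier results of these data known. Of the 44, 40 passed the filter on dim genes and 4 did not. Psma4, which encodes another 20S alpha subunit, is not among them because its probe sets carry several symbols.

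The cells were mouse embryonic fibroblasts, labelled as primary MEF cells, that lack STING (STING-/-) and were reconstituted with the STING R284S variant, an activating form of the adaptor that relays cytosolic DNA signals to the kinase TBK1. All 5 groups share this background, and none of them lacks R284S. The groups are vehicle, Compound C, doxorubicin, GSK 690693 and tofacitinib, each treated for 9 hours at doses not given in the sources used here, with 1 Affymetrix array per group. Compound C blocks the energy sensor AMPK, and BMP receptors as well. Doxorubicin is a topoisomerase II poison, GSK 690693 an AKT inhibitor that also acts on AMPK, and tofacitinib a JAK inhibitor. The question was how far the proteasome transcripts of such cells differed from vehicle with each compound.

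The proteasome is the protease that degrades ubiquitin-tagged proteins in the cytosol and nucleus. Its 20S core is a barrel of alpha rings, which gate the entrance, and beta rings, of which Psmb5, Psmb6 and Psmb7 encode the chymotrypsin-like, caspase-like and trypsin-like active sites. The 19S cap binds, deubiquitinates and unfolds substrates with a ring of ATPases (Psmc genes), a base scaffold and a lid (Psmd genes). Other caps, the PA28 and PA200 activators, are encoded by Psme genes, and the Psmg genes encode chaperones that assemble the alpha ring. Subunits are made in matched amounts, and the transcription factor NRF1 (gene Nfe2l1) raises their transcription together when proteasome activity is short.

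Values are log2 signals, and a difference is the log2 signal on a compound array minus that on the vehicle array. No group had a replicate, so no difference has an error or a test. The closest pair of arrays, GSK 690693 and tofacitinib, had a standard deviation of the difference of 0.258 over 12317 tested genes and 0.129 over the 40 proteasome genes. It serves as a yardstick for single genes, though these arrays differ in treatment. It does not gauge a shift of the group median, which between these arrays was 0.115 for the 40 genes. Where 5 signals follow each other without names, their order is vehicle, Compound C, doxorubicin, GSK 690693, tofacitinib. The arrays read RNA from whole cultures, in which fewer cells of a type and less RNA per cell cannot be told apart. Median log2 signals over tested genes ran from 7.16 to 7.39 per array. The 9 fibroblast markers passed the filter with signals from 7.30 to 12.68, and their summed signal lay between 92.7 and 94.52 on the 5 arrays. The sum does not show moves of single markers. Pdgfrb read 9.87 with vehicle and 8.66 with Compound C, where 3 of the 9 lay above vehicle and 4 below. Col1a1 read 11.14 with vehicle and 10.50 with doxorubicin, where 6 lay above and 3 below. Of the 6 leukocyte markers, 3 passed the filter, namely Cd68, Cd14 and Csf1r. Cd14 read 6.15 to 6.47, and Csf1r read 5.52 with GSK 690693 and 4.92 to 5.27 on the other arrays. Below the filter, Ptprc read 3.65 to 3.86, Adgre1 3.28 to 3.65, and Itgam 3.95 to 4.42. Cd68 read 7.63 with doxorubicin and 6.56 to 6.88 on the other arrays, and the summed signal of the 6 leukocyte markers was 31.04 with doxorubicin and 29.32 to 29.60 elsewhere. The 3 neural markers also stood apart there, with a summed signal of 20.92 against 19.32 to 19.71, and of these Tubb3 read 7.32 with doxorubicin and 6.63 to 6.84 on the other arrays. The part of these markers in the doxorubicin values was not tested. The summed signal of the endothelial markers ran from 19.65 to 20.67 and that of the epithelial markers from 20.26 to 20.90, neither with doxorubicin at an end. The STING gene Sting1 read between 5.07 and 5.25, below the filter, and where its probe set lies relative to the disrupted and the introduced sequence is unknown, so it is no check of the labels.

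Most proteasome transcripts read modestly higher than vehicle with doxorubicin. The group medians were 0.37 for the alpha ring, 0.45 for the constitutive beta ring and 0.38 for the ATPase ring. That of the lid was 0.18 and that of the 20S assembly chaperones −0.56. The median difference of the 40 genes was 0.345, against 0.05 for all 12317 tested genes, and 31 of the 40 lay above vehicle, against 54% of all tested genes. As deposited, 3 genes were at least 1.5-fold higher, against 11.5% of all tested genes, and 1 was that much lower, against 14.2%. With tofacitinib the median was 0.235 against 0.09, and 34 of 40 lay above vehicle against 62.7%. With GSK 690693 the median was 0.09 against 0.04, with 27 of 40 above against 55.2%. With Compound C the median was −0.01 against −0.02, with 19 of 40 above against 46.6%, and 0 were 1.5-fold higher against 6.06%. With GSK 690693 also 0 were 1.5-fold higher, against 2.4%. All 4 differences are taken from the same vehicle array, so they are not independent of each other.

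The count above vehicle depends on how the arrays are scaled, and least so with doxorubicin. Centring each array on its median over tested genes raised every difference of Compound C and of doxorubicin by 0.06 and lowered those of GSK 690693 by 0.07 and of tofacitinib by 0.17. With doxorubicin, 32 of 40 genes then lay above vehicle against 58.9% of all tested genes, with medians of 0.405 and 0.11, and 8 were at least 1.5-fold higher against 14.4% and 0 lower against 12.8%. The share of proteasome genes 1.5-fold higher thus lay below that of all tested genes as deposited and above it after centring. With tofacitinib, 26 of 40 lay above against 37%, with medians of 0.065 and −0.08. With GSK 690693, 21 of 40 lay above against 44.4%, and with Compound C 23 of 40 against 53.4%. Centring shifts the proteasome genes and all tested genes alike, so the gap between their medians is the same under either scaling by construction.

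**Figure D1:**
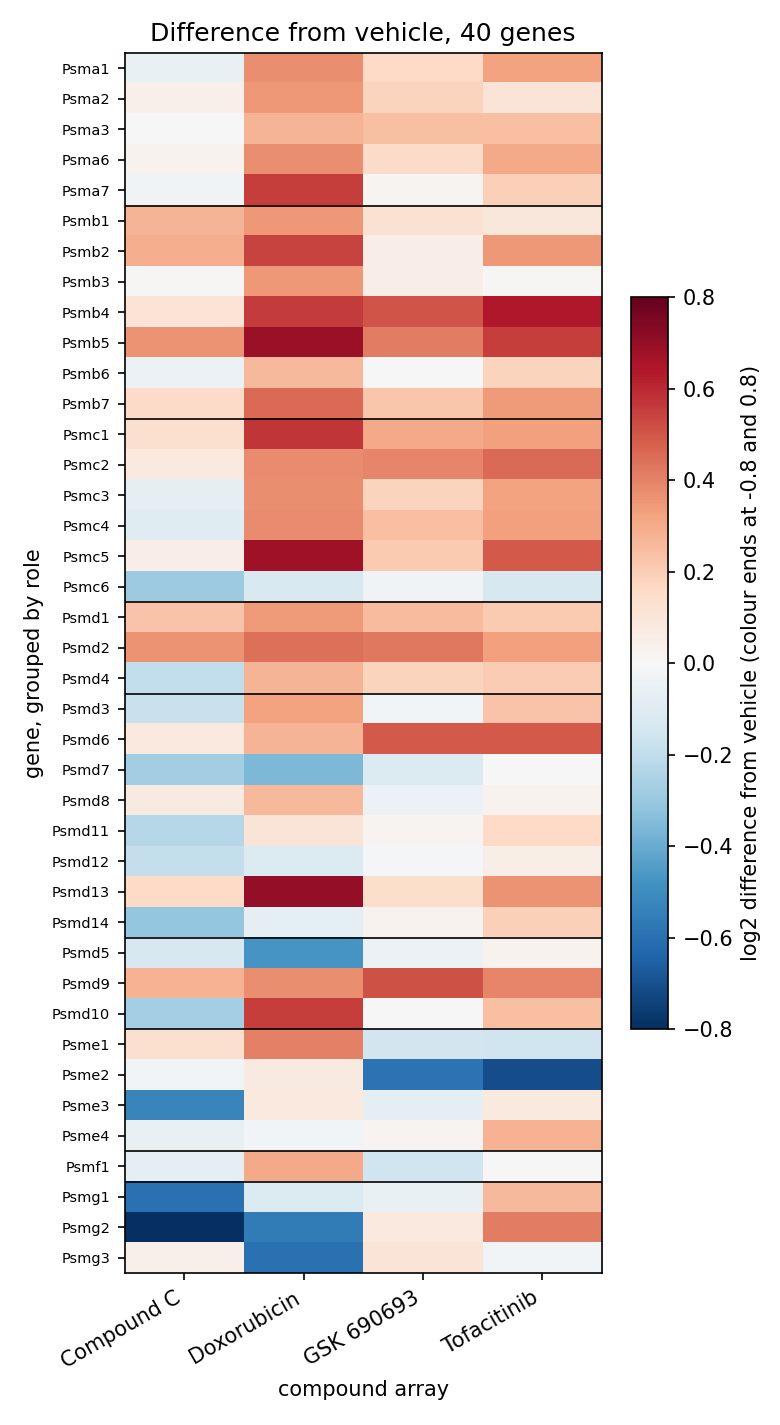
Log2 difference from vehicle of the 40 proteasome genes above the filter (rows, ordered by role and divided by lines) with each compound (columns), 1 array each; the colour scale ends at −0.8 and 0.8. Red fills the doxorubicin column for 31 of 40 genes, and the deepest blue, beyond the end of the scale, is Psmg2 with Compound C at −2.08.

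The spread among the proteasome genes was narrower than that of genes at large. With doxorubicin the standard deviation of the difference was 0.328 over the 40 genes and 0.584 over all tested genes. It was 0.598 over the 4214 genes with a mean signal of at least 8, a class that holds 32 of the 44 proteasome genes. Among those bright genes the doxorubicin median was 0.35 for the proteasome and 0.14 for all, with 27 of 32 against 61.5% above vehicle. With Compound C the standard deviation over the 40 genes was 0.391 against 0.455, and without Psmg2 it was 0.22.

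**Figure D2:**
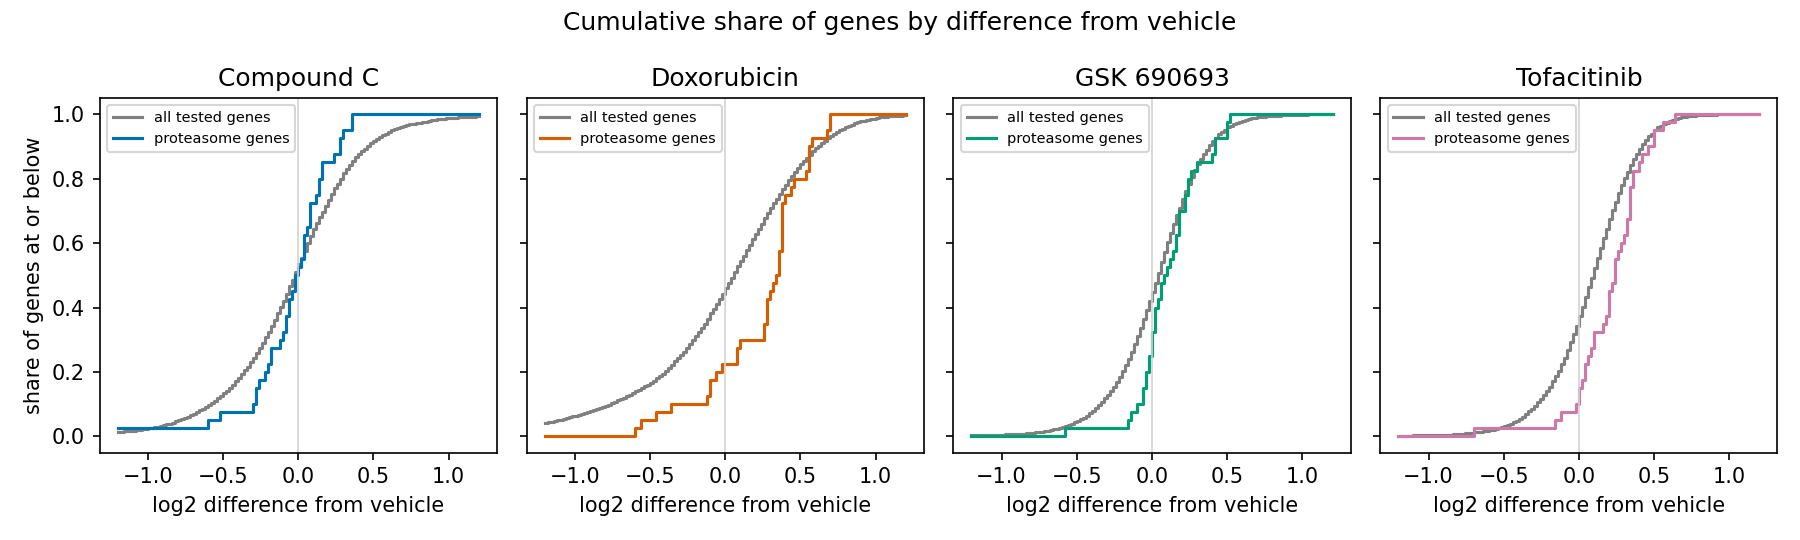
Cumulative share of genes (vertical axis) at or below each log2 difference from vehicle (horizontal axis), for the 40 proteasome genes (coloured) and all 12317 tested genes (grey), 1 panel per compound. The doxorubicin curve of the proteasome genes runs to the right of the grey one up to about the 1.5-fold threshold, and the medians are 0.345 and 0.05.

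Of the 7 alpha ring genes, 5 were above the filter, and all 5 lay above vehicle with doxorubicin, by 0.27 to 0.55, with GSK 690693, by 0.02 to 0.24, and with tofacitinib, by 0.10 to 0.32. With Compound C the same 5 lay between −0.06 and 0.04. After centring, 4 of the 5 lay above vehicle with GSK 690693 and with tofacitinib. Psma7 read 9.63 after vehicle, 9.60 after Compound C, 10.18 after doxorubicin, 9.65 after GSK 690693 and 9.82 after tofacitinib. Its doxorubicin signal stood apart from the other 4, which lay between 9.60 and 9.82. Psma1 read 9.29 after vehicle, 9.23 after Compound C, 9.66 after doxorubicin, 9.45 after GSK 690693 and 9.61 after tofacitinib. As deposited, doxorubicin and tofacitinib were thus nearly level. Psma6 ran the same way with 8.51 for vehicle, 8.54, 8.88, 8.66 and 8.81 in the same order of compounds. After centring, the doxorubicin and tofacitinib differences from vehicle were 0.43 and 0.15 for Psma1 and 0.43 and 0.13 for Psma6. Psma5 and the testis-expressed Psma8 stayed below the filter on all 5 arrays. The Psma5 probe sets did not match. The one with the higher mean read 3.55, 4.82, 3.70, 4.35 and 3.88, so Compound C stood 1.27 above vehicle. The other read 3.87, 3.71, 3.74, 3.86 and 3.49. Neither can be read as a level of this subunit.

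The constitutive beta ring had the highest doxorubicin median of the larger groups, 0.45, with all 7 genes above vehicle by 0.26 to 0.69. With Compound C, 6 of the 7 lay above vehicle with a median of 0.15, and after centring all 7 with a median of 0.21. Against the median of the other 4 arrays, that Compound C median was −0.12. With tofacitinib 7 lay above vehicle and 5 after centring, and with GSK 690693 the counts were 6 and 4. The proteolytic subunit gene Psmb5, whose product is the target of bortezomib, read 7.93 after vehicle, 8.29 after Compound C, 8.62 after doxorubicin, 8.34 after GSK 690693 and 8.48 after tofacitinib. Vehicle was the lowest array, and doxorubicin was 1.61-fold above it. Psmb4, a structural subunit gene, read 7.44 after vehicle, 7.55 after Compound C, 8.0 after doxorubicin, 7.94 after GSK 690693 and 8.08 after tofacitinib. Here vehicle and Compound C were low and the other 3 arrays high, with tofacitinib 1.56-fold above vehicle, the only proteasome gene at least 1.5-fold higher with that compound, against 2.66% of all tested genes. The other active-site genes moved less: Psmb6 read 9.17, 9.12, 9.43, 9.17 and 9.35 with vehicle, Compound C, doxorubicin, GSK 690693 and tofacitinib, and Psmb7 9.51, 9.66, 9.96, 9.73 and 9.85. Psmb2 was 0.54 above vehicle with doxorubicin, and Psmb1 and Psmb3 were each 0.35 above. Psmb11, the thymus-specific beta subunit gene, read 4.02 to 4.33, below the filter.

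In the ATPase ring, 5 of 6 genes lay above vehicle with doxorubicin, with GSK 690693 and with tofacitinib, and Psmc6 was the exception with each, under either scaling. Psmc5 read 8.19 after vehicle, 8.24 after Compound C, 8.87 after doxorubicin, 8.40 after GSK 690693 and 8.68 after tofacitinib, so doxorubicin was 1.60-fold above vehicle. Psmc1 read 8.83, 8.96, 9.40, 9.13 and 9.16 in that order, and at 0.57 with doxorubicin it fell just short of 1.5-fold. Psmc6 read 10.48 after vehicle, 10.19 after Compound C, 10.36 after doxorubicin, 10.45 after GSK 690693 and 10.35 after tofacitinib. As deposited, it was the only tested proteasome gene highest on the vehicle array alone. After centring, 4 of the 40 were highest there, against 13.5% of all tested genes. Psmc2 read 9.37, 9.45, 9.75, 9.76 and 9.82. Its second, dimmer probe set read 6.23, 6.16, 6.42, 6.48 and 6.10. The 2 probe sets thus gave opposite signs for tofacitinib, 0.45 and −0.13, and the same sign for doxorubicin, 0.38 and 0.19.

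The base scaffold genes Psmd1 and Psmd2 lay above vehicle with every compound. Psmd2 read 9.98 after vehicle, 10.34 after Compound C, 10.42 after doxorubicin, 10.40 after GSK 690693 and 10.31 after tofacitinib, so the compound arrays lay between 10.31 and 10.42, all above vehicle. Psmd1 read 10.06, 10.29, 10.40, 10.31 and 10.27, with the same shape. The ubiquitin receptor gene Psmd4 read 8.35, 8.15, 8.62, 8.53 and 8.55, with Compound C below vehicle.

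The lid was split. With doxorubicin, 5 of its 8 genes lay above vehicle and 3 below, with a median of 0.18 and a range from −0.36 to 0.70. Psmd13 read 8.26 after vehicle, 8.42 after Compound C, 8.96 after doxorubicin, 8.40 after GSK 690693 and 8.62 after tofacitinib. The doxorubicin array was 1.62-fold above vehicle, the highest ratio over vehicle among the 40 tested genes with any compound. At the other end, Psmd7 read 11.18, 10.90, 10.82, 11.07 and 11.18, lowest with doxorubicin and tied for highest between vehicle and tofacitinib. Psmd14, which encodes the deubiquitinase of the lid, read 7.87, 7.56, 7.80, 7.90 and 8.06, lowest with Compound C and highest with tofacitinib. Psmd6 stood at 8.35 on the vehicle array, 8.43 on Compound C, 8.62 on doxorubicin and 8.84 on both GSK 690693 and tofacitinib. With Compound C, 5 of the 8 lid genes lay below vehicle, and the lid median of −0.185 was the lowest of the 5 groups of core and cap subunits.

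**Figure D3:**
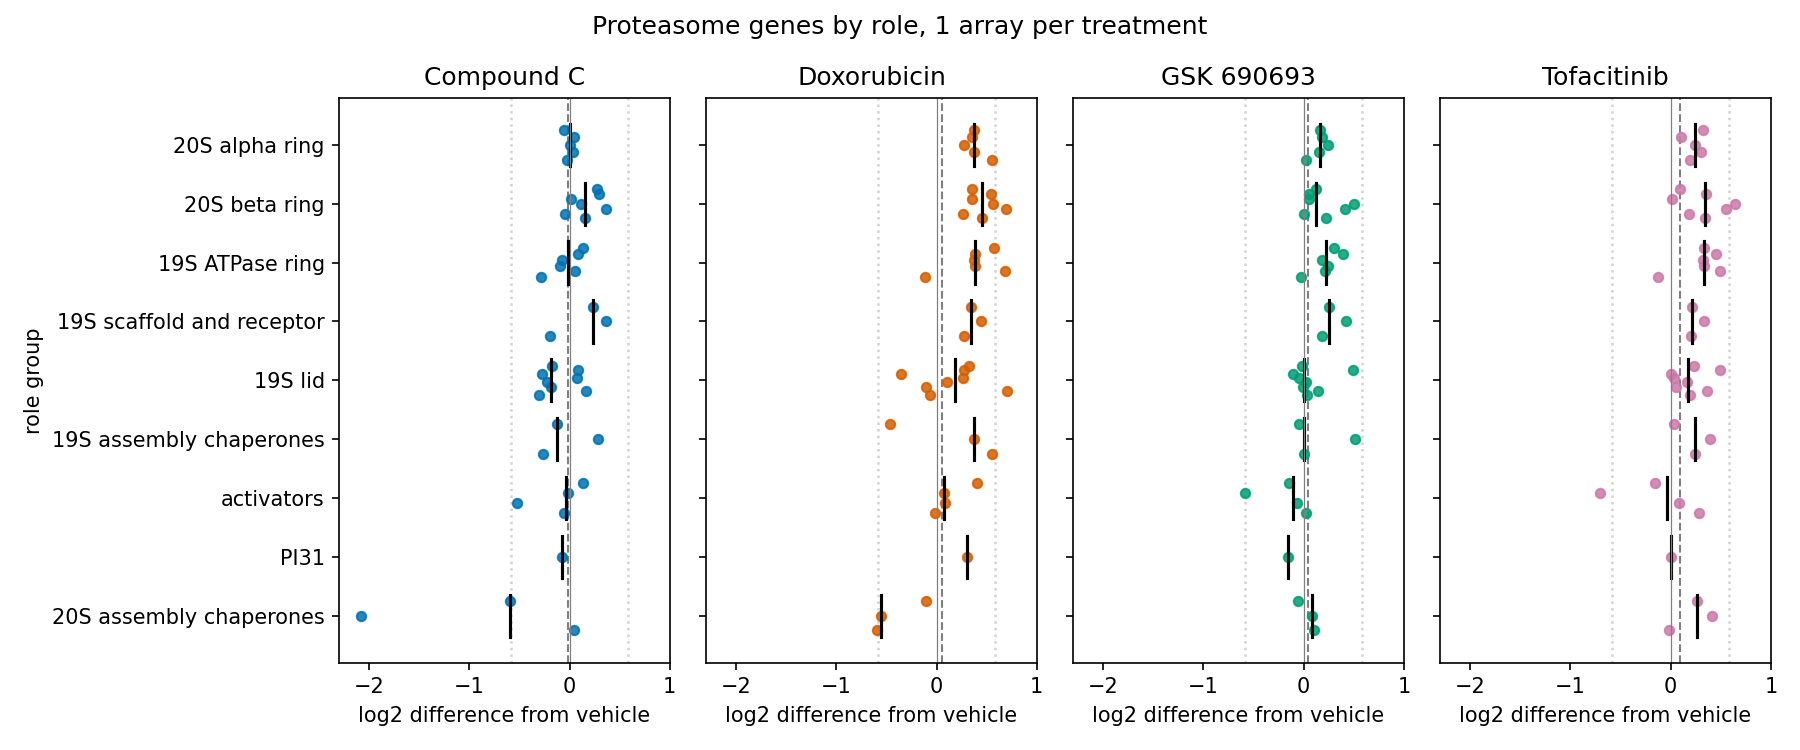
Log2 difference from vehicle (horizontal axis) of each tested proteasome gene (points) by role group (vertical axis), 1 panel per compound and 1 array each; black bars are group medians, the dashed line is the median of all tested genes and dotted lines mark 1.5-fold. Every point of the alpha and beta rings lies to the right of vehicle with doxorubicin, while those of the 20S assembly chaperones lie to the left; the point at −2.08 with Compound C is Psmg2.

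Promoter sequence was examined because 31 of the 40 tested genes lay above vehicle with doxorubicin, while 9 lay below. RefSeq promoters (250 bases before to 50 after a start, GRCm38.p6) were found for 36 of the 44 genes, 39 promoters in all. The core of the antioxidant response element, TGACNNNGC, through which NRF1 and NRF2 act on proteasome genes, was searched on either strand and stood in 6 of the 39, or 15.4%, against 14.1% of 12331 promoters of tested genes and 12.4% of all 32851 promoters. The matches upstream of the start are shown with their flanks, 5′ to 3′ on the gene's strand and with the match in capitals.
Psmb5, chr14:54618009-54618067, minus strand: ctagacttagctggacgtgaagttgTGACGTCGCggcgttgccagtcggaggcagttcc
Psmb6, chr11:70525323-70525356, plus strand: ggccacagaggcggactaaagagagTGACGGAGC
Psmd9, chr5:123228134-123228189, plus strand: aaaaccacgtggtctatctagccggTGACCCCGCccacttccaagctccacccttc
Psmd12, chr11:107479278-107479314, plus strand: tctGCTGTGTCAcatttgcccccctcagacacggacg
Psmc6, chr14:45329574-45329630, plus strand: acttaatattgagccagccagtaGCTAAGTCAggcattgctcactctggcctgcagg
The match lies on the gene's strand in Psmb5, Psmb6 and Psmd9 and on the opposite strand in Psmd12 and Psmc6, and in Psme4 it spans the start. With doxorubicin these 6 genes read at 0.69 for Psmb5, 0.26 for Psmb6, 0.37 for Psmd9, −0.11 for Psmd12, −0.12 for Psmc6 and −0.02 for Psme4, so genes on either side of vehicle hold the letters. The CCAAT box (CCAAT) stood in 33.3% of the 39 promoters and 37.3% of those of tested genes, and the GC box (GGGCGG) in 56.4% and 62.3%, both on either strand. A match is a run of letters and not a shown binding site.

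The 19S assembly chaperones, which hold ATPase subunits until the base is complete, did not move together. Psmd10, also known as gankyrin, read 7.97 after vehicle, 7.70 after Compound C, 8.52 after doxorubicin, 7.97 after GSK 690693 and 8.21 after tofacitinib. Psmd5 read 10.00 after vehicle, 9.87 after Compound C, 9.53 after doxorubicin, 9.95 after GSK 690693 and 10.03 after tofacitinib, so on the doxorubicin array it was low where Psmd10 was high. Psmd9 read 6.64, 6.92, 7.01, 7.15 and 7.03, lowest with vehicle.

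The 20S assembly chaperone gene Psmg2 held the largest difference of the list, below vehicle with Compound C. Psmg2 encodes PAC2, which pairs with PAC1, the product of Psmg1, to guide the alpha ring together. Psmg2 read 7.88 after vehicle, 5.80 after Compound C, 7.32 after doxorubicin, 7.96 after GSK 690693 and 8.29 after tofacitinib. The Compound C array was 4.23-fold below vehicle and 1.52 log2 units below the next lowest array; this is the only tested proteasome gene that differed from vehicle by 2-fold with any compound, against 2.52% of tested genes 2-fold lower with Compound C. A second Psmg2 probe set read 2.30 to 2.40 on all 5 arrays, dim throughout, and so gives no check. Psmg1 read 7.22 after vehicle, 6.62 after Compound C, 7.11 after doxorubicin, 7.16 after GSK 690693 and 7.48 after tofacitinib. It too was lowest with Compound C, at 1.52-fold below vehicle, and was just past the 1.5-fold threshold, which 2 of the 40 genes passed downwards against 9.99% of all tested genes. After each array was centred on its median, only Psmg2 passed it.

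Psmg3, which encodes PAC3 of the other chaperone pair, read 5.86 after vehicle, 5.90 after Compound C, 5.26 after doxorubicin, 5.96 after GSK 690693 and 5.84 after tofacitinib. It was the only proteasome gene at least 1.5-fold lower with doxorubicin, it was dim, and it no longer passed after centring. Psmg4, its partner, read 4.73, 5.02, 4.98, 4.75 and 4.89, below the filter. Psmg1, Psmg2 and Psmg3 lay below vehicle with doxorubicin, by 0.11, 0.56 and 0.60, while every tested gene of the alpha ring they assemble lay above it. The 20S maturation factor gene Pomp, outside the naming rule, read 8.63, 8.86, 9.45, 8.60 and 8.70 and was 0.82 above vehicle with doxorubicin.

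**Figure D4:**
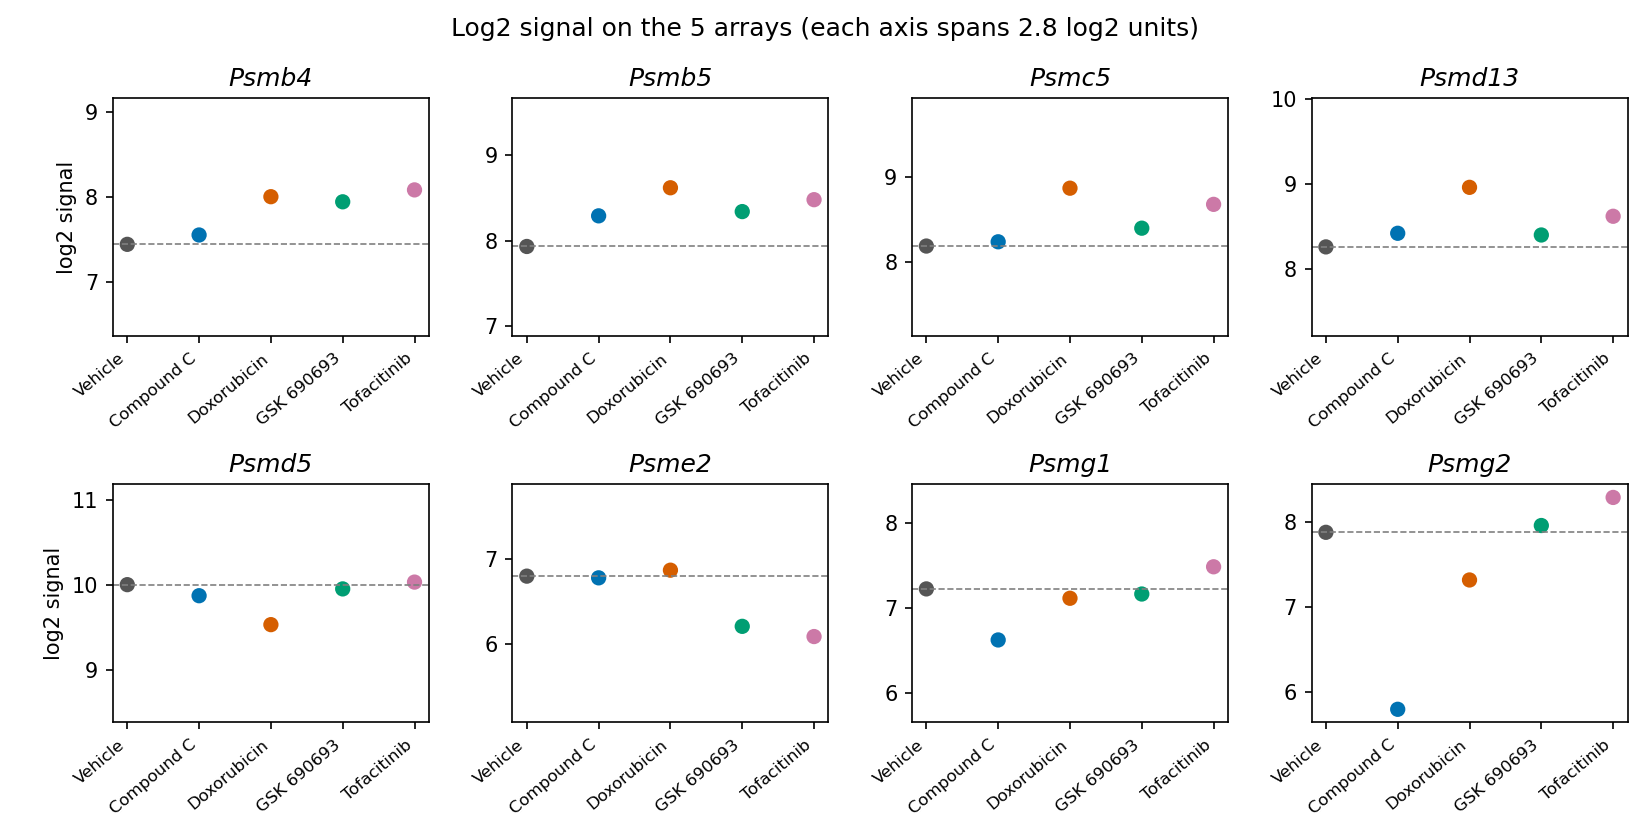
Log2 signal (vertical axis, the same span in each panel) of 8 proteasome genes on the 5 arrays (horizontal axis, 1 point per array), with the vehicle level as a dashed line. Psmb5, Psmc5 and Psmd13 were highest with doxorubicin, Psme2 was low with GSK 690693 and tofacitinib, and Psmg1 and Psmg2 were lowest with Compound C.

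Among the activators, the PA28 alpha and beta genes Psme1 and Psme2 are interferon-inducible, and their product opens the 20S gate without ubiquitin. Psme2 read 6.80 after vehicle, 6.78 after Compound C, 6.87 after doxorubicin, 6.21 after GSK 690693 and 6.09 after tofacitinib. The first 3 arrays were level, and the last 2 were 1.51-fold and 1.64-fold below vehicle. It was the only tested proteasome gene at least 1.5-fold lower with GSK 690693, against 3.21% of all tested genes, and with tofacitinib, against 2%. Psme1 read 9.32, 9.45, 9.72, 9.17 and 9.16, with the same 2 arrays lowest by smaller amounts. A further probe set names Psme2 together with other genes and was not used. Psme3, which encodes nuclear PA28 gamma, read 9.19, 8.66, 9.27, 9.12 and 9.27, low with Compound C alone. Psme4, which encodes PA200, read 8.99, 8.93, 8.97, 9.01 and 9.27, highest with tofacitinib. Psmf1, which encodes the regulator PI31, read 8.25, 8.17, 8.55, 8.09 and 8.25, highest with doxorubicin.

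The immunoproteasome genes Psmb9, Psmb10 and Psmb8, left out by the rule, encode subunits that take the places of Psmb6, Psmb7 and Psmb5 in interferon-exposed cells. Psmb8 read 7.99 after vehicle, 8.14 after Compound C, 8.60 after doxorubicin, 7.83 after GSK 690693 and 7.77 after tofacitinib, and Psmb10 7.54, 7.49, 8.37, 7.51 and 7.66. Psmb8, Psmb9 and Psmb10 were 0.61, 0.37 and 0.83 above vehicle with doxorubicin, so the direction of the constitutive ring was shared there. With GSK 690693 their differences from vehicle were −0.16, −0.18 and −0.03, each smaller in size than the single-gene yardstick of 0.258. No constitutive beta gene was below vehicle with GSK 690693 as deposited, and 3 of 7 were after centring.

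Comparisons that leave out the vehicle array were made as well. On the doxorubicin array 37 of 40 proteasome genes read higher than on the Compound C array, against 60.2% of all tested genes, with medians of 0.31 and 0.13. These arrays have the same median over tested genes, 7.16, so centring cannot change this comparison. The 3 exceptions were Psmd5, Psmd7 and Psmg3. Between the AMPK inhibitors, 33 of 40 read lower with Compound C than with GSK 690693, against 53.6%, with medians of −0.16 and −0.03. After centring the count was 22 of 40 against 39.6%. Tofacitinib read above GSK 690693 for 28 of 40, against 56.6%, with medians of 0.115 and 0.04, and for 21 of 40 against 38.8% after centring. Over all 5 arrays, vehicle included and ties left out, each gene's highest array was doxorubicin for 25 of 40, against 35.7% of all tested genes, tofacitinib for 9 against 17.6% and Compound C for 0 against 18.4%. Its lowest array was vehicle for 16 of 40, against 18.2%, and Compound C for another 16, against 28.7%. After centring, the highest array was doxorubicin for 29 of 40 against 44.2%, and the lowest was vehicle for 13 of 40 against 13.1% and Compound C for 11 of 40 against 20.8%. These counts share arrays with each other.

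Genes around the proteasome were taken from set lists. Of 10 found and tested proteasome genes outside the naming rule, 2 were at least 1.5-fold higher with doxorubicin, against 11.5% of all tested genes, and 2 lower, against 14.2%, counts too small to set apart from those shares. The higher ones were Pomp and Sem1, a small lid subunit gene that read 9.15 with vehicle and 9.95 with doxorubicin. Akirin2, which encodes a factor for nuclear import of proteasomes, read 9.54 after vehicle, 9.52 after Compound C, 8.20 after doxorubicin, 9.72 after GSK 690693 and 9.56 after tofacitinib, and the proteasome-bound thioredoxin gene Txnl1 was 0.77 below vehicle with doxorubicin. Uchl5, a deubiquitinase gene of the cap, was the 1 gene of that list at least 1.5-fold lower with Compound C, at −0.63, against 9.99% of all tested genes. Txnl1 and Uchl5 are named after their values were seen, because the counts they belong to are small.

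Of 11 shuttle and segregase genes, which bring ubiquitinated proteins to the proteasome, 0 were 1.5-fold higher with any compound, against shares of all tested genes of 11.5% for doxorubicin, 6.06% for Compound C, 2.66% for tofacitinib and 2.4% for GSK 690693. A list of 11 cannot be set apart from those shares by a count of 0. Zfand5, a ubiquitin-binding activator of the proteasome, read 9.20 with vehicle and 7.30 with doxorubicin, a difference of −1.90, and between 9.18 and 9.39 on the other arrays. It was the 1 gene of that list 1.5-fold lower with doxorubicin, against 14.2%. Faf2 and Ubqln2 were lower with Compound C, by 0.94 and 0.76, and were the 2 past 1.5-fold there, against 9.99%. Of 3 tested genes of the NRF1 list, 1 was past 1.5-fold below vehicle with doxorubicin, against 14.2% of all tested genes, and 1 with Compound C, against 9.99%. Nfe2l1 itself read 8.79 after vehicle, 8.84 after Compound C, 9.16 after doxorubicin, 8.98 after GSK 690693 and 9.04 after tofacitinib. Ngly1, which encodes the deglycosylase that NRF1 needs for activation, read 7.98 on the vehicle array, 6.65 on Compound C and 7.47 on doxorubicin, 1.33 and 0.51 lower, and Nfe2l2, the NRF2 gene, was 0.49 above vehicle with Compound C and 0.72 below it with doxorubicin. Of 6 ubiquitin and E1 genes only Uba6 had a probe set with a single symbol, and it was 0.62 below vehicle with Compound C and 0.58 below with GSK 690693.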

How the data were processed

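Log2 signals, 1 per array for each probe set, were deposited by the authors, made with Affymetrix Expression Console 1.3.1.187 per the submitters' processing notes; the log base was inferred from the values. The summarisation, background correction and normalization steps were not given in the sources used here. If the arrays were forced to one distribution, a shift of most genes one way was removed before deposit. Symbols came from the platform annotation. The table held 41345 probe sets, of which 23521 had 1 symbol, 1814 several and 16010 none, and 0 value columns were left unused. Each of the 22180 genes was represented by its probe set with the highest mean. A gene was kept if its value reached the array's median over single-symbol probe sets on at least 1 array, which 12317 genes did, and the term tested refers to these.

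Differences are log2 signal on 1 array minus another, counted at 1.5-fold (0.585) and 2-fold. A single array per group leaves no replicate error, test or p-value, and the number of arrays limits the precision. The counting was tested on simulated data, which checks the code and not the counts from these single arrays. The alternatives were other probe sets, other filters, median centring, another reference and the 2-fold threshold. The members and lists were chosen with earlier results of these data known. Values on all 5 arrays are printed for members 2-fold from vehicle, the 2 of each role group farthest from it, those nearest 1.5-fold, those with disagreeing probe sets and a set list of catalytic, activator and chaperone genes; other proteasome pathway genes come from set lists. Promoter sequences are from RefSeq, GRCm38.p6. Python 3.11.15, pandas 2.3.3, numpy 2.4.6 and matplotlib 3.10.9 were used.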

Additional observations from a re-analysis of the deposited data

How the results depend on the processing

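No paired analysis was possible because each group has 1 array. Of the member medians, that of Compound C moved from −0.01 to −0.185 when the reference was the median of the other 4 arrays. The median of all tested genes was then −0.06, and 6 of 40 members lay above that reference, against 42.4% of all tested genes. The tofacitinib median moved from 0.235 to 0.065 when the arrays were centred on their medians. The other settings moved a member median by less than 0.1. The number at least 1.5-fold lower with Compound C went from 2 to 1 with the mean of all probe sets or the lowest-mean one. In those settings Psmg2 fell below the filter, and the 1 left was Psmg1. The count was also 1 after centring, against the other reference and at the 2-fold threshold, and that 1 was Psmg2. Among genes with a mean signal of at least 8, a filter added after seeing the data, the count was 0. Without a filter, 1 member was 1.5-fold higher with Compound C and 1 with GSK 690693, in place of 0; that member is the dim Psma5. With doxorubicin, 8 members were 1.5-fold higher after centring, 0 against the other reference and 0 at 2-fold, in place of 3; the shares of all genes were 14.4%, 7.48% and 1.33%, in place of 11.5%. The lower count with doxorubicin, 1, was 0 with all 5 values at or above the median, after centring, among bright genes and at 2-fold, and 2 against the other reference. The lower count with GSK 690693, 1, was 0 against the other reference, among bright genes and at 2-fold. With tofacitinib the higher count, 1, was 0 after centring, among bright genes and at 2-fold, and the lower count, 1, was 0 among bright genes and at 2-fold. The filter on bright genes leaves out Psmb4, Psme2, Psmg1, Psmg2 and Psmg3, and the filter on all 5 values leaves out Psmg3. Under these filters the counts fell because those genes were left out, with their differences unchanged. Over the settings at 1.5-fold, the share of all genes that much lower ran from 6.47% to 10.8% with Compound C, from 8.83% to 14.8% with doxorubicin, from 1.93% to 4.39% with GSK 690693 and from 1.06% to 4.87% with tofacitinib, where the share higher ran from 0.544% to 3.21%. Each called difference of a single member kept its sign against the other reference; centring shifts are too small to turn one. Of the called members only Psmg2 has another probe set, with which its Compound C difference went from −2.08 to −0.01, at dim signals. No detection call was used, so whether the dim members lay above background is unknown.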
